A study of Mus musculus with 24 samples.

Results

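The genes described here are those of the main hepatic apolipoproteins and of the protein that loads lipid onto them: Apoa1, Apoa2, Apoa4, Apoa5, Apob, Apoc1, Apoc2, Apoc3, Apoe and Mttp. They were taken by gene symbol, as probe sets annotated with exactly that symbol, and each was followed over all 8 groups of the study. Of the 10 genes, 9 had 1 probe set each and were among the 21144 genes tested. Apoc2 was represented only on a probe set shared with Apoc4, so its values are given without a test.

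Liver RNA was measured on 24 Affymetrix mouse arrays, 3 for each of 8 groups, and each array was labelled as a sample of its own and is cited by its number in the labels. In the first experiment, N-RAS-/- and N-RAS+/+ mice were injected 2 times per week with carbon tetrachloride (CCl4), a solvent that hepatocytes convert into toxic radicals, or with the corn oil vehicle, and livers were collected after 28 days. In the second, N-RAS-/- and N-RAS+/+ mice underwent bile duct ligation (BDL), which blocks the outflow of bile, or a sham operation, and livers were collected at day 28. The mice were labelled as males and entered the study at 8 to 10 weeks of age. N-RAS-/- mice lack the small GTPase N-RAS in every cell, not in hepatocytes alone, and N-RAS+/+ mice are the wild type. Both genotypes were bred on the same inbred background.

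Very low density lipoprotein (VLDL) carries triglyceride out of the liver. One molecule of apolipoprotein B forms the backbone of each particle, and the microsomal triglyceride transfer protein, encoded by Mttp, adds lipid to it in the endoplasmic reticulum, without which the particle is not secreted. The smaller apolipoproteins exchange between particles in plasma, where they regulate lipolysis (C-II, C-III, A-V), bind receptors (E) or build high density lipoprotein (A-I, A-II). Apolipoprotein A-IV is made by the intestine and, in rodents, also by the liver.

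The values are log2 signals, so that a difference of 1 is a factor of 2. Arrays of 1 group correlated at 0.980 to 0.992 over all probe sets. Nras signal was 4.55 to 5.55 on the N-RAS-/- arrays and 5.92 to 8.04 on the N-RAS+/+ arrays, without overlap. The average signal of 4 Y-linked genes did not exceed 3.59 on 6 arrays and lay between 6.84 and 8.25 on the other 18. The low signal goes against the male label. These were all 3 N-RAS-/- sham arrays, N-RAS+/+ sham arrays 1 and 3, and N-RAS-/- oil array 28. N-RAS+/+ oil array 21 also stood apart: its highest signal was 12.74, while the highest signal of every other array was 13.18 or more. The lowest of the 24 signals of Apoa1, Apoa2, Apob and Apoe, 4 of the 9 genes, came from that array. Skeletal muscle markers averaged 8.39 on N-RAS-/- BDL array 12 and at most 4.63 elsewhere.

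Apoa1, Apoc3, Apoa4 and Apoa5 are neighbours on chromosome 9, in this order, and Apoc2, Apoc4, Apoc1 and Apoe are neighbours on chromosome 7. Apob lies on chromosome 12, Apoa2 on chromosome 1 and Mttp on chromosome 3. The 250 bases before the start of Apoa1, Apoa4 and Apoa5 are shown because only Apoa4 and Apoa5 among these neighbours were called after CCl4. They were taken from RefSeq promoters of GRCm38.p6, 5′ to 3′ on the coding strand, with the matches to the motifs searched in capitals. For Apoa5 the first of its listed starts is shown.
Apoa1 (chr9:46228380-46228629, plus strand): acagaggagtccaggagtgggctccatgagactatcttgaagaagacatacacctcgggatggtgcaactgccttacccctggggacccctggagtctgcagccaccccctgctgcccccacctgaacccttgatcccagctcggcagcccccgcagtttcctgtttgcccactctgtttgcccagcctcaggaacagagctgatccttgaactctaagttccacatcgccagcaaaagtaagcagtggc
Apoa4 (chr9:46240594-46240843, plus strand): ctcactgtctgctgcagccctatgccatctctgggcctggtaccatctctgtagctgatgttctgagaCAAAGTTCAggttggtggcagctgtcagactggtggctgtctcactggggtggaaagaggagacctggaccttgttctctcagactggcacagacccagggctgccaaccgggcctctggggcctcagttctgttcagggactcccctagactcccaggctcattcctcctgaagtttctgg
Apoa5 (chr9:46268358-46268607, plus strand): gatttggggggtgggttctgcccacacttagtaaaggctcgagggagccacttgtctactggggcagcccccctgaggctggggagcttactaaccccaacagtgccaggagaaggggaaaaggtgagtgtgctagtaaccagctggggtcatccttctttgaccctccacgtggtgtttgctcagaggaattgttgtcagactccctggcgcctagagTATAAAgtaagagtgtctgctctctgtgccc
In the Apoa4 sequence the capitals mark an HNF4 type element (CAAAGTNCA), 182 to 174 bases before the start. In the Apoa5 sequence they mark a TATAAA box, 31 to 26 bases before the start. No motif searched was matched in the Apoa1 sequence. Promoter windows were listed for 8 of the 10 genes. Over all 32851 windows of this length, CAAAGTNCA occurred in 1.19% and TATAAA in 12.37%. Both strands were searched, and the stricter HNF4 type element CAAAGTCCA (0.38% of windows), TGANTCA of AP-1 (6.75%), TTCNNNGAA of STAT factors (7.02%) and TGACGTGG of the CREB3L3 type (0.56%) were matched in none of the members' windows. The nuclear receptor element AGGTCA (14.02% of windows) was matched upstream of Apoa2 and Apoc2. TATAAA was matched upstream of Apoa2, Apob and Apoe as well as Apoa5, and those other genes were not called after CCl4. CAAAGTNCA overlaps CAAAGTCCA and was added to the search after the sequences had been seen.

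Apoa4 had the widest range of group means among the 9 genes, 1.96 on the log2 scale, against 0.36 (Apob) to 0.67 (Apoa5) for the others. After CCl4 it was 2.96-fold higher in N-RAS-/- livers and 3.82-fold higher in N-RAS+/+ livers than after oil. No other member was higher after CCl4 in either genotype by the same test, and after BDL no member passed it.

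Counted over the 9 genes, CCl4 against oil gave 1 higher and 0 lower in N-RAS-/- livers, where 13.6% of all genes were called higher and 9.19% lower. In N-RAS+/+ livers it gave 1 higher and 1 lower, where 8.08% of all genes were called higher and 7.16% lower. The median difference of the 9 genes was -0.14 in N-RAS-/- livers and -0.15 in N-RAS+/+ livers, against -0.02 and 0.01 over all genes. BDL against sham gave 0 of 9 in either direction with limma in N-RAS-/- livers, where 7.18% of all genes were called higher and 4.05% lower, and 0 of 9 in N-RAS+/+ livers, where the shares were 4.51% and 2.7%. At an unadjusted p under 0.05, 1 gene was lower after BDL in N-RAS-/- livers and 2 in N-RAS+/+ livers. The medians after BDL were -0.22 and -0.11, against -0.03 and -0.01 over all genes.

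In N-RAS-/- mice the Apoa4 log2 signals were 12.53, 12.49 and 12.51 after CCl4, against 10.59, 11.53 and 10.72 after oil. In N-RAS+/+ mice they were 12.33, 12.50 and 12.63 after CCl4, against 10.52, 10.58 and 10.55 after oil. All 6 CCl4 arrays therefore lay above all 6 oil arrays, and the 1 oil array that came closest, array 28 of the N-RAS-/- mice, was the one with low Y-linked signal. The difference was 1.56 ± 0.20 in N-RAS-/- livers (log2, standard error, adjusted p = 5.25e-05, limma with Benjamini-Hochberg adjustment over all genes) and 1.93 ± 0.20 in N-RAS+/+ livers (adjusted p = 1.65e-05). Without array 28 the N-RAS-/- difference was 1.86. Leaving out each array in turn gave 1.38 to 1.86 in N-RAS-/- livers and 1.86 to 2.01 in N-RAS+/+ livers, with the call kept each time. The responses of the genotypes differed by -0.37 ± 0.28 (N-RAS-/- minus N-RAS+/+, adjusted p = 0.556), with a 95% confidence interval of -0.97 to 0.23.

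After BDL the Apoa4 signals were more scattered. They were 10.72, 11.24 and 11.32 in N-RAS-/- BDL livers, against 11.07, 11.47 and 11.50 in N-RAS-/- sham livers. In N-RAS+/+ mice they were 11.08, 11.05 and 11.86 after BDL, against 11.33, 10.38 and 10.87 after sham. The ranges overlapped in both genotypes. The difference was -0.25 ± 0.27 in N-RAS-/- livers (adjusted p = 0.635) and 0.47 ± 0.27 in N-RAS+/+ livers (adjusted p = 0.377). In N-RAS+/+ mice, with the 1 sham array of ordinary Y-linked signal as the only control, it was 0.95 ± 0.35 (adjusted p = 0.301), where that lone array was assumed to vary like the other groups. With Y-linked signal as a term the direction turned in N-RAS-/- livers, to 0.36 ± 0.42 (adjusted p = 0.789). All 3 N-RAS-/- sham arrays had low Y-linked signal, so in that genotype the operation and this property cannot be told apart.

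Among the uninjured livers, Apoa4 separated by Y-linked signal. The 6 oil and sham arrays of low Y-linked signal had 10.87 to 11.53 (median 11.40), and the other 6 had 10.38 to 10.72 (median 10.56), with no overlap. Medians of the other 8 genes differed between the same sets by -0.07 to 0.25, the largest being that of Apoc3. All low arrays but N-RAS-/- oil array 28 were sham arrays, and all others but N-RAS+/+ sham array 2 were oil arrays. The split was thus nearly that between the experiments. Within N-RAS+/+ sham, Apoa4 was 10.38 on array 2, against 11.33 and 10.87. Within N-RAS-/- oil it was 11.53 on array 28, against 10.59 and 10.72. For Apoc3 these values were 12.49, against 12.58 and 12.47, and 12.59, against 12.38 and 12.35. Each of the 6 arrays of low Y-linked signal also had a mean of 10.12 or more for 10 genes of female-biased liver expression, and the other 18 had 6.71 or less.

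**Figure D1:**
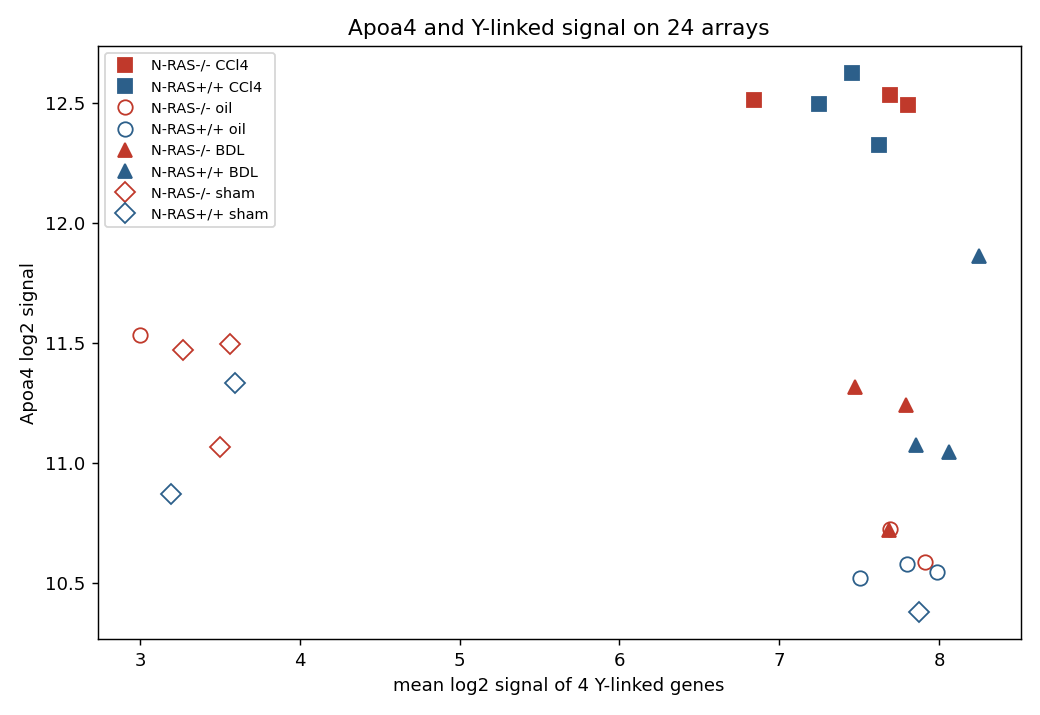
Apoa4 log2 signal (vertical axis) against the mean log2 signal of 4 Y-linked genes (horizontal axis) on each of the 24 arrays, 1 point per array. The 6 CCl4 points lie above 12.3, and the 6 points at left, all oil or sham, lie above the 6 other oil and sham points.

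The CCl4 and BDL responses of Apoa4 were compared directly on all 24 arrays. The CCl4 response exceeded the BDL response by 1.82 ± 0.35 in N-RAS-/- livers (adjusted p = 0.00164) and by 1.47 ± 0.35 in N-RAS+/+ livers (adjusted p = 0.0213). With Y-linked signal as a term these were 1.34 (adjusted p = 0.0102) and 0.90 (adjusted p = 0.166), of which the N-RAS-/- value passed the test and the N-RAS+/+ value did not. The Y-linked effect in the N-RAS-/- value was estimated from other groups, since no N-RAS-/- BDL or sham group held both kinds of array. The call was also lost in N-RAS+/+ livers without array 1, 4, 5 or 26, where the lowest difference was 1.23. The 2 injuries were applied in separate experiments. Of all genes, 4.4% were called higher and 4.74% lower in this comparison in N-RAS-/- livers, and 1.4% and 1.56% in N-RAS+/+ livers. Of the 9 members, Apoa4 alone was called in each genotype. At an unadjusted p under 0.05, 1 member was higher and 1 lower in each.

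Intestinal RNA was looked for because the gut is a main source of Apoa4. The mean of 9 enterocyte markers was 4.41 to 4.54 in N-RAS-/- CCl4 livers and 4.85 to 4.96 in N-RAS+/+ CCl4 livers, against 4.68 to 4.81 and 4.76 to 4.89 in the corresponding oil livers. Lct and Sis, the brush border enzymes lactase and sucrase-isomaltase, were between 3.36 and 4.88 on all arrays. By limma 0 of the 9 were higher after CCl4 in either genotype. Fabp2, which the liver expresses as well and which reached 9.63, was lower in N-RAS-/- livers (-1.24 ± 0.27, adjusted p = 0.00349). Markers of infiltrating macrophages averaged 6.94 to 7.36 in N-RAS-/- CCl4 livers and 6.92 to 7.77 in N-RAS+/+ CCl4 livers, against 5.90 to 6.36 and 5.65 to 5.91 after oil, and their part in the difference was not tested. In bulk liver, fewer cells of a type and less RNA per cell cannot be told apart.

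Apoa5 is the close neighbour of Apoa4 and encodes an activator of plasma triglyceride lipolysis. Its signals were 10.43, 10.38 and 10.55 in N-RAS-/- CCl4 livers, against 10.40, 10.56 and 10.30 in N-RAS-/- oil livers. In N-RAS+/+ mice they were 10.47, 10.05 and 9.98 after CCl4, against 10.64, 10.83 and 10.59 after oil. The groups overlapped in N-RAS-/- livers and did not in N-RAS+/+ livers. The difference was 0.03 ± 0.16 in N-RAS-/- livers (adjusted p = 0.923) and -0.52 ± 0.16 in N-RAS+/+ livers (adjusted p = 0.0340), where Apoa5 fell. That call was lost without any 1 of arrays 21, 22, 23, 25 and 26 (adjusted p up to 0.137). It was kept without array 24, at -0.67. The responses of the genotypes differed by 0.55 ± 0.22, which did not pass the test (adjusted p = 0.215).

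Apoa1, the backbone protein of high density lipoprotein, had its lowest group mean in N-RAS-/- CCl4 livers. The signals were 12.65, 12.64 and 12.73 in N-RAS-/- CCl4 livers, against 12.99, 13.17 and 13.14 in N-RAS-/- oil livers. In N-RAS+/+ mice they were 12.83, 12.79 and 12.95 after CCl4, against 12.63, 13.22 and 13.15 after oil. The groups did not overlap in N-RAS-/- livers, while in N-RAS+/+ livers array 21 lay below the CCl4 arrays and the other oil arrays above them. The difference was -0.43 ± 0.16 in N-RAS-/- livers (adjusted p = 0.0677) and -0.15 ± 0.16 in N-RAS+/+ livers (adjusted p = 0.633), neither of them called. After quantile normalization of the signals the N-RAS-/- difference was -0.50 and passed the test (adjusted p = 0.00927).

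Apoc3, an inhibitor of triglyceride lipolysis, lies between Apoa1 and Apoa4. In N-RAS-/- mice its signals were 12.09, 12.07 and 12.15 after CCl4, against 12.38, 12.59 and 12.35 after oil. In N-RAS+/+ mice they were 12.12, 11.95 and 12.13 after CCl4, against 12.14, 12.32 and 12.29 after oil. Every CCl4 array thus lay below the oil arrays of its genotype, although CCl4 array 26 and oil array 21 of the N-RAS+/+ mice nearly touched. The differences of -0.33 ± 0.13 (adjusted p = 0.0876) and -0.18 ± 0.13 (adjusted p = 0.439) were not called. After BDL the difference was -0.30 ± 0.12 in N-RAS-/- livers (adjusted p = 0.122) and -0.24 ± 0.12 in N-RAS+/+ livers (adjusted p = 0.263).

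**Figure D2:**
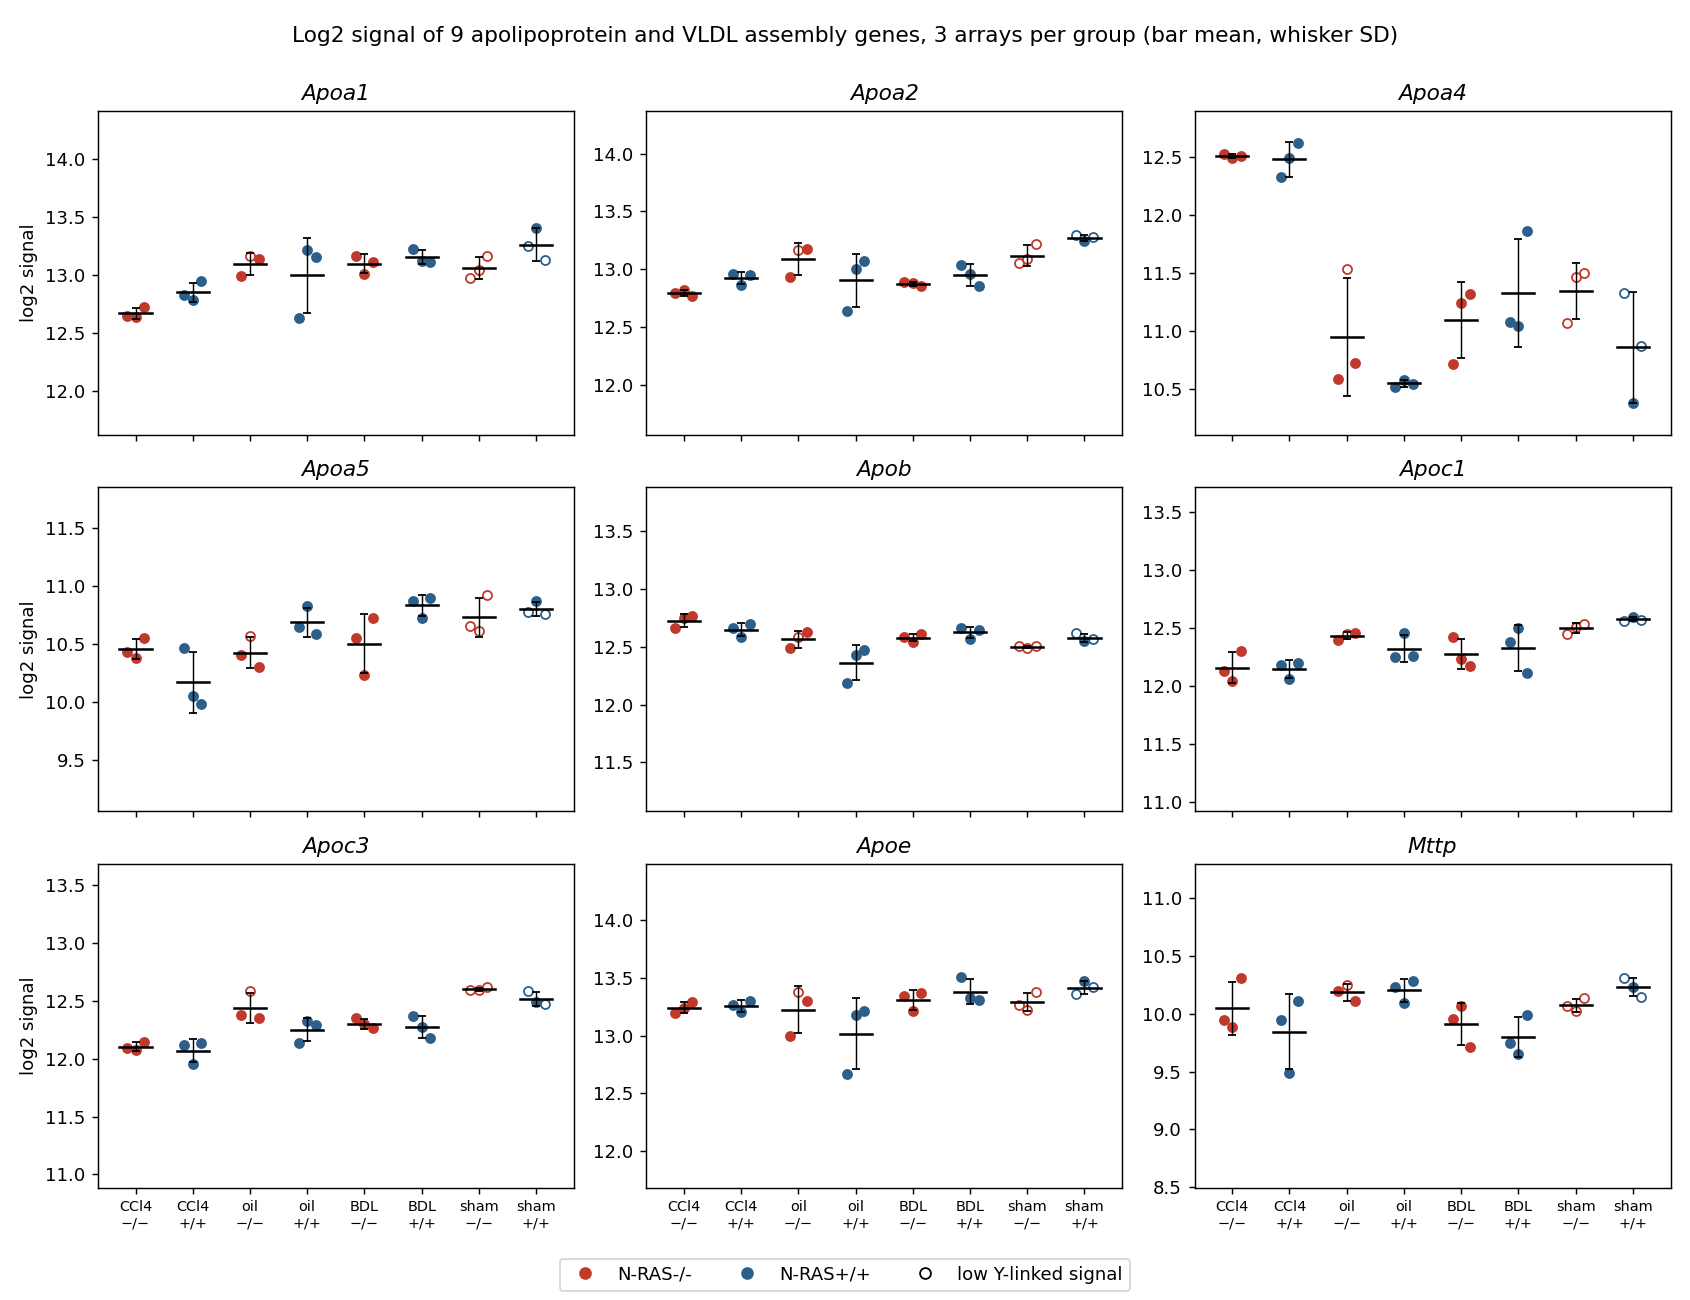
Log2 signal (vertical axis) of the 9 tested genes in 8 groups of 3 arrays (horizontal axis; -/- and +/+ stand for N-RAS-/- and N-RAS+/+). Points are arrays, horizontal bars means and whiskers SD, each panel spans the same number of log2 units, and open points mark arrays of low Y-linked signal. Apoa4 stands highest in the 2 CCl4 groups, and the low N-RAS+/+ oil point of Apoa1, Apoa2, Apob and Apoe is array 21.

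Apob and Mttp, the pair on which VLDL assembly depends, were called in no injury comparison. Apob was 12.66, 12.75 and 12.77 in N-RAS-/- CCl4 livers, against 12.49, 12.59 and 12.63 in N-RAS-/- oil livers. In N-RAS+/+ mice it was 12.66, 12.59 and 12.70 after CCl4, against 12.19, 12.43 and 12.47 after oil. Every CCl4 array lay above every oil array of its genotype, with differences of 0.16 ± 0.13 (adjusted p = 0.449) in N-RAS-/- livers and 0.28 ± 0.13 (adjusted p = 0.183) in N-RAS+/+ livers. After BDL the Apob difference was 0.08 ± 0.11 in N-RAS-/- livers and 0.05 ± 0.11 in N-RAS+/+ livers, with 95% confidence intervals of -0.16 to 0.32 and -0.19 to 0.29.

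Mttp had its lowest group mean in N-RAS+/+ BDL livers. In N-RAS-/- mice its signals were 9.96, 10.06 and 9.71 after BDL, against 10.06, 10.02 and 10.13 after sham. In N-RAS+/+ mice they were 9.75, 9.65 and 9.99 after BDL, against 10.31, 10.23 and 10.15 after sham. The groups overlapped in N-RAS-/- livers and did not in N-RAS+/+ livers. The difference was -0.16 ± 0.14 in N-RAS-/- livers (adjusted p = 0.529) and -0.43 ± 0.14 in N-RAS+/+ livers (adjusted p = 0.0799). After CCl4 it was -0.14 ± 0.17 in N-RAS-/- livers (adjusted p = 0.633) and -0.36 ± 0.17 in N-RAS+/+ livers (adjusted p = 0.201). Without array 6, the BDL difference in N-RAS+/+ livers was -0.53 and passed the test (adjusted p = 0.0491). Without the arrays of low Y-linked signal it was -0.43, with 1 sham array as the only control. With that signal as a term it was -0.47 and not called (adjusted p = 0.321).

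Apoa2, the other major protein of high density lipoprotein, was 12.89, 12.88 and 12.86 in N-RAS-/- BDL livers, against 13.05, 13.09 and 13.22 in N-RAS-/- sham livers. In N-RAS+/+ mice it was 13.04, 12.96 and 12.85 after BDL, against 13.29, 13.24 and 13.28 after sham. The groups did not overlap in either genotype. The differences of -0.24 ± 0.12 (adjusted p = 0.225) and -0.32 ± 0.12 (adjusted p = 0.131) did not pass the test. After CCl4 Apoa2 differed by -0.30 ± 0.14 in N-RAS-/- livers (adjusted p = 0.168) and by 0.02 ± 0.14 in N-RAS+/+ livers (adjusted p = 0.955).

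Apoc1, which inhibits receptor uptake of remnants, and Apoe, the receptor ligand, are neighbours on chromosome 7. Apoc1 differed by -0.28 ± 0.13 in N-RAS-/- livers and -0.17 ± 0.13 in N-RAS+/+ livers after CCl4, and by -0.22 ± 0.13 and -0.25 ± 0.13 after BDL. None of these was called (adjusted p from 0.157 to 0.459). Apoe differed by 0.02 ± 0.16 in N-RAS-/- livers and 0.24 ± 0.16 in N-RAS+/+ livers after CCl4, and by 0.02 ± 0.12 and -0.04 ± 0.12 after BDL. Its probe set was among the 10 brightest of 22206 on every array.

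The probe set shared by Apoc2, the cofactor of lipoprotein lipase, and Apoc4 was higher after both injuries in its group means. In N-RAS-/- mice it was 12.35, 12.46 and 12.63 after CCl4, against 12.22, 12.34 and 12.05 after oil. In N-RAS+/+ mice it was 12.37, 12.35 and 12.35 after CCl4, against 11.79, 12.13 and 11.84 after oil. The CCl4 arrays lay above the oil arrays in each genotype. In N-RAS-/- mice CCl4 array 30 (12.351) and oil array 28 (12.342), the latter of low Y-linked signal, nearly touched. In N-RAS-/- mice it was 12.52, 12.64 and 12.44 after BDL, against 11.84 to 12.15 after sham. In N-RAS+/+ mice it was 12.37, 12.45 and 12.32 after BDL, against 11.94, 12.11 and 11.80 after sham. The highest of these sham values, 12.11, was that of array 2, the only sham array of ordinary Y-linked signal in either genotype. The part of Y-linked signal in the BDL differences of this probe set was not tested. The mean difference after CCl4 was 0.28 for N-RAS-/- mice and 0.44 for N-RAS+/+ mice, and after BDL it was 0.54 and 0.43, with no overlap in any of the 4 comparisons. Of all 22206 probe sets, 2.86% lay higher without overlap in all 4 comparisons. In single comparisons 19.5% did so after CCl4 in N-RAS-/- livers and 16.5% in N-RAS+/+ livers, and 15.4% and 11.9% after BDL. The values carry no test, and the share of each gene in the signal is unknown.

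Apoc1 and Apoc3 lay lower without overlap in all 4 injury comparisons, and neither was called in any of them. The share of all probe sets lower in all 4 at once was not counted, so how common this is remains unknown. Single comparisons of that kind were common among all probe sets, at 16.4% after CCl4 in N-RAS-/- livers, 15.2% after CCl4 in N-RAS+/+ livers, 15% after BDL in N-RAS-/- livers and 10.8% after BDL in N-RAS+/+ livers.

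The members were also compared without the arrays of low Y-linked signal. For CCl4 in N-RAS-/- livers this left out array 28, and Apoa1 (-0.39, adjusted p = 0.156), Apoc3 (-0.26, adjusted p = 0.260), Apoa2 (-0.26, adjusted p = 0.322) and Apoc1 (-0.27, adjusted p = 0.258) moved further from the threshold. For BDL in N-RAS+/+ livers it left 1 sham array, so that the differences of Apoa2 (-0.29), Apoc1 (-0.26) and Apoc3 (-0.22) rest on that array as the only control. For BDL in N-RAS-/- livers no sham array was left, and with Y-linked signal as a term Apoc3 was -0.26 (adjusted p = 0.663) and Apoa2 -0.20 (adjusted p = 0.757). The small differences of Apoa1 and Apoe after BDL in N-RAS-/- livers and of Apoa5 after BDL in N-RAS+/+ livers changed sign with that term (-0.17, -0.04 and -0.04).

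**Figure D3:**
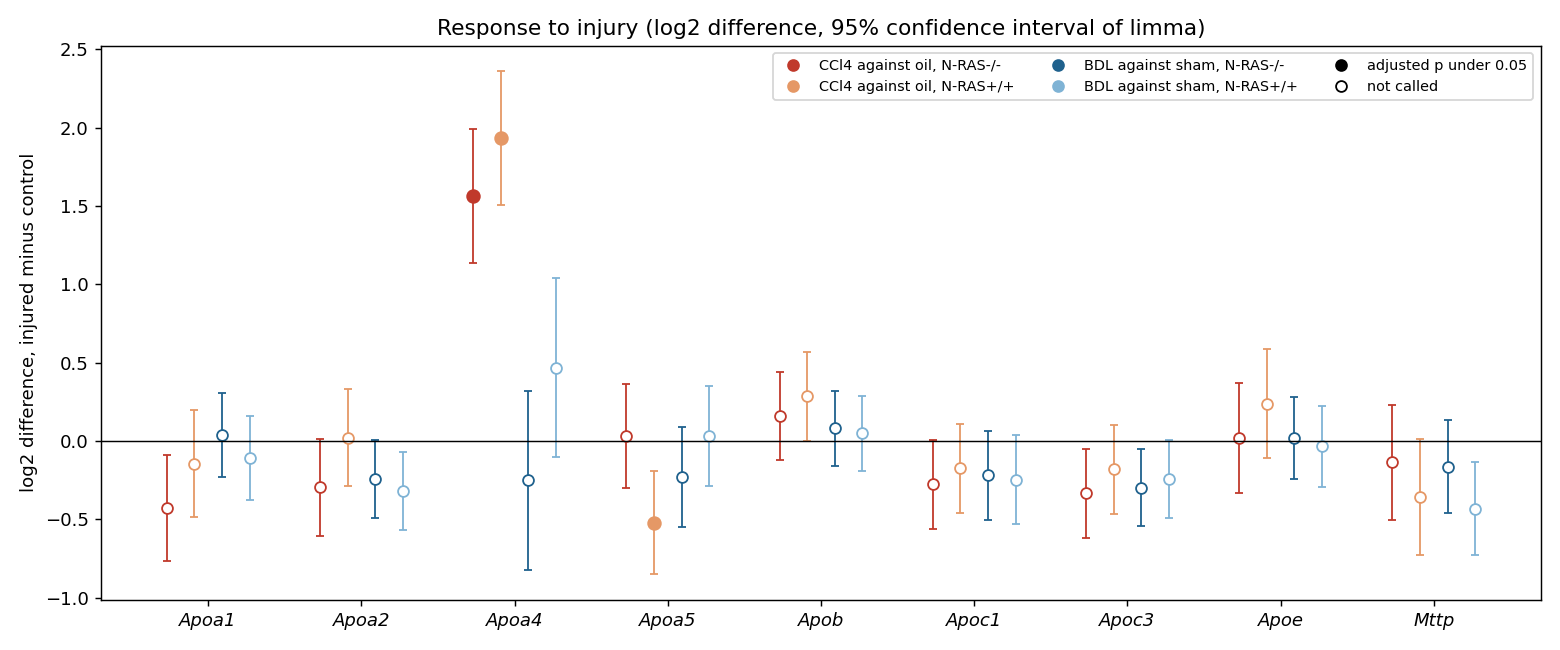
Log2 difference between injured and control livers (vertical axis) for the 9 tested genes (horizontal axis), with the 95% confidence interval of limma. Filled points passed an adjusted p of 0.05, which only Apoa4 after CCl4 in both genotypes and Apoa5 after CCl4 in N-RAS+/+ livers did.

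No member was called between the genotypes. With limma, 0 of 9 genes were called between the genotypes after CCl4, although 8.72% of all genes were called higher and 5.56% lower in N-RAS-/- livers. Likewise 0 of 9 were called after BDL (0.525% of all genes higher and 0.18% lower), after oil (0.534% and 0.312%) and after sham (0.246% and 0.18%). At an unadjusted p under 0.05, 1 gene was lower in N-RAS-/- BDL livers, which was Apoa5, and none differed in the other comparisons. The 36 differences between genotypes ran from -0.33, that of Apoa5 after BDL, to 0.48, that of Apoa4 after sham. Their smallest adjusted p was 0.241. With Y-linked signal as a term in limma, the Apoa4 difference after sham was 0.28 ± 0.27 (adjusted p = 0.897).

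Apoa5 signals were 10.55, 10.23 and 10.73 in N-RAS-/- BDL livers, against 10.87, 10.73 and 10.90 in N-RAS+/+ BDL livers. The groups touched without overlapping, and 8.42% of all probe sets lay lower without overlap here as well. The difference was -0.33 ± 0.15 (adjusted p = 0.397). After CCl4, Apoa4 differed between the genotypes by 0.03 ± 0.20, with a 95% confidence interval of -0.40 to 0.46. After oil it differed by 0.40 ± 0.20 (adjusted p = 0.441), and by 0.11 ± 0.15 without array 28. The genotype effect in injured livers was compared with that in control livers, and 0 of 9 genes were called by limma either for CCl4 (1.32% of all genes higher and 1.04% lower; 1 member at an unadjusted p under 0.05, Apoa5) or for BDL (0% of all genes in either direction; 0 members at an unadjusted p under 0.05).

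**Figure D4:**
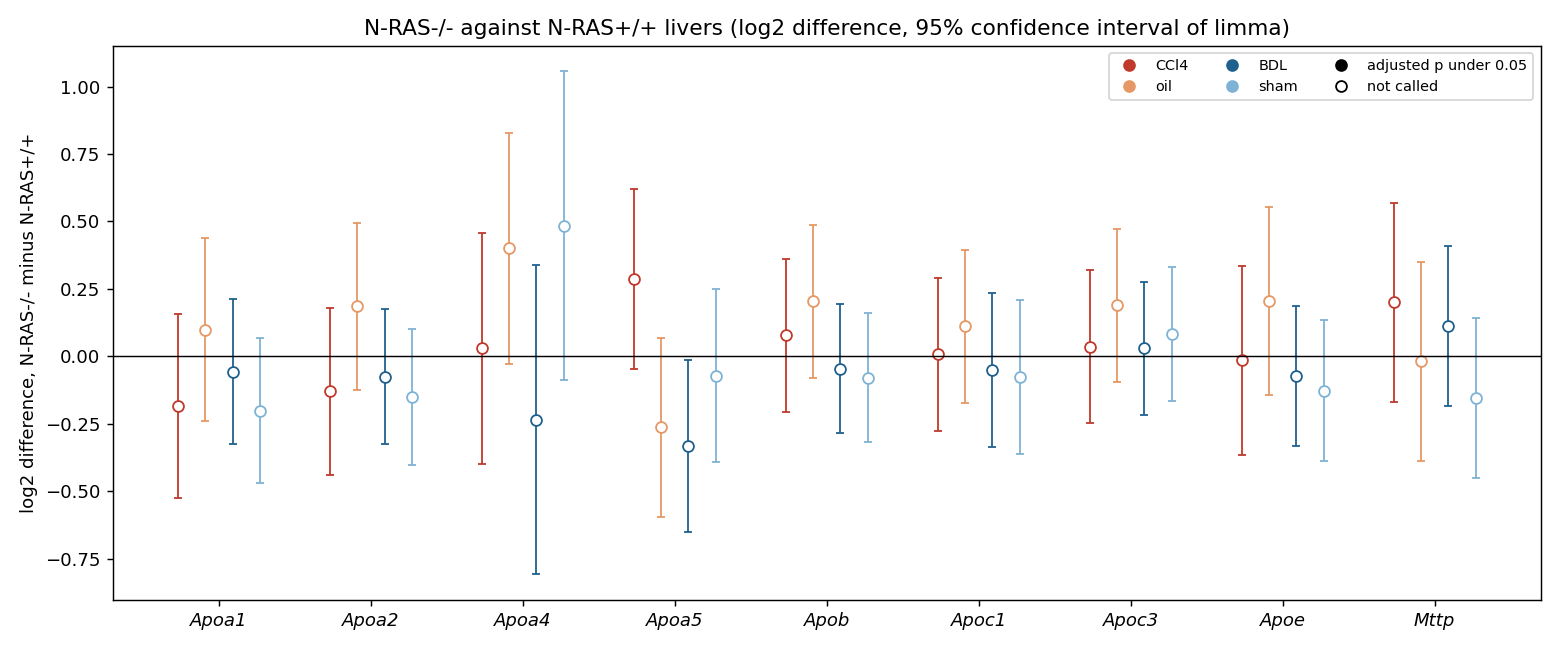
Log2 difference between N-RAS-/- and N-RAS+/+ livers (vertical axis) after CCl4, oil, BDL and sham for the 9 tested genes (horizontal axis), with the 95% confidence interval of limma. All points are open, since none passed an adjusted p of 0.05.

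Ranked by group mean, all neighbouring groups overlapped for Apoa5, Apoe and Mttp. Apoa4 had a single break, of 1.14 between the N-RAS+/+ CCl4 group and the next, N-RAS-/- sham, and neighbouring groups on either side of it overlapped. Within groups its SD over arrays was 0.33, larger than that of any other member (0.07 for Apob to 0.17 for Mttp). Apoa1 ended with the N-RAS-/- CCl4 group alone at the bottom, below N-RAS+/+ CCl4 by 0.18. Apoc3 ran from N-RAS-/- sham at 12.60 to N-RAS+/+ CCl4 at 12.07.

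Correlations over the 24 arrays are given as a description, since the arrays share groups and array 21. Apoc1 and Apoc3 correlated at 0.86, Apoa2 with Apoc3 at 0.79 and Apoa1 with Apoa2 at 0.75 (Pearson's r). Apoa4 correlated with Apob at 0.66 and with Apoc1 at -0.64. Apob correlated with Apoe at 0.66 as well, and Apoe with Apoa1 at 0.60 but with Apoa4 at 0.12. The genes outside the family whose pattern was most like that of Apoa4 were Morc4 (r = 0.91), the interleukin receptor gene Il17ra (0.90) and Hif1a (0.90), which encodes a hypoxia-inducible factor subunit. Apoc3 was most like the amino acid transporter gene Slc38a3, Dnajc30 and Rdh7 (0.90 each), and Apoc1 most like Hnf4aos (0.87). Apoe was most like other secreted liver proteins, Ahsg (0.89), Alb (0.88) and Serpina1a (0.86), Apoa1 most like Serpinc1 (0.86), and Apoa2 most like Serpina1d (0.88). Apob was nearest to Eef1a1 (0.87), Mttp to the acyl-CoA synthetase gene Acsl1 (0.82) and Apoa5 to Fads6 (0.81).

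Other genes of the pathway were counted from lists. Of 24 measured genes of VLDL assembly and secretion, 5 were higher and 8 lower after CCl4 in N-RAS-/- livers, and 3 higher and 6 lower in N-RAS+/+ livers. After BDL 0 were higher and 7 lower in N-RAS-/- livers, and 0 higher and 6 lower in N-RAS+/+ livers. Of all genes, 13.6% were called higher and 9.19% lower after CCl4 in N-RAS-/- livers, and 8.08% and 7.16% in N-RAS+/+ livers. After BDL the shares were 7.18% and 4.05% in N-RAS-/- livers, and 4.51% and 2.7% in N-RAS+/+ livers. The median difference of the list was -0.28 for N-RAS-/- mice and -0.27 for N-RAS+/+ mice after CCl4, and -0.11 and -0.05 after BDL. The falls with the smallest adjusted p were those of carboxylesterases, enzymes of the endoplasmic reticulum and lipid droplets of which several hydrolyse stored triglyceride. After CCl4 the Ces1g difference was -3.26 ± 0.23 for N-RAS-/- mice and -2.16 ± 0.23 for N-RAS+/+ mice (adjusted p = 2.10e-07 and 2.25e-05), and that of Ces1e was -2.26 and -1.62. After BDL the Ces3b difference was -2.84 ± 0.17 for N-RAS-/- mice and -2.33 ± 0.17 for N-RAS+/+ mice (adjusted p = 3.25e-07 and 2.53e-06), and that of Ces3a was -2.40 and -2.77. Ces1g was not called after BDL (-0.12 and 0.34), and its CCl4 response minus its BDL response was -3.14 ± 0.36 for N-RAS-/- mice and -2.50 ± 0.36 for N-RAS+/+ mice. Ces3a was not called after CCl4 (-0.37 and -0.28), and the same difference of responses was 2.04 ± 0.35 and 2.49 ± 0.35 (adjusted p at most 0.000472 for both genes). Both genes kept these calls with Y-linked signal as a term. These enzymes are near copies of each other, so that signals of one may include another.

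Between genotypes, 3 of the 24 genes were lower and 0 higher in N-RAS-/- CCl4 livers than in N-RAS+/+ CCl4 livers. They were Ces1e (-1.24 ± 0.23, adjusted p = 0.00254), Ces1d (-0.99 ± 0.20, adjusted p = 0.00390) and Cideb (-0.54 ± 0.14, adjusted p = 0.0169), which encodes a protein that helps lipidate VLDL. Between these CCl4 groups 8.72% of all genes were called higher and 5.56% lower in N-RAS-/- livers. None of the 24 was called between the genotypes after BDL, oil or sham.

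Of 8 genes of triglyceride lipolysis, Lpl, which encodes lipoprotein lipase and is low in adult hepatocytes, rose after BDL by 2.57 ± 0.21 for N-RAS-/- mice and by 2.08 ± 0.21 for N-RAS+/+ mice (adjusted p = 4.78e-06 and 3.88e-05). Lpl is abundant in muscle, and without array 12, the one of high muscle markers, the N-RAS-/- rise was 2.72. Macrophages express Lpl and Cd36 as well, and 10 markers of infiltrating macrophages averaged 7.81 to 7.94 in N-RAS-/- BDL livers, against 5.79 to 6.01 in N-RAS-/- sham livers. Among N-RAS+/+ mice they averaged 7.45 to 7.75 after BDL, against 5.77 to 5.91 after sham. Their part in the rise of either gene was not tested. After CCl4 Lpl was not called, and the CCl4 response minus the BDL response was -2.04 for N-RAS-/- mice and -1.83 for N-RAS+/+ mice (adjusted p = 0.000107 and 0.000814). Without the arrays of low Y-linked signal the N-RAS+/+ value was -1.46, smaller in size. It rested on 1 sham array as the only sham control, so the call above does not extend to it. Lipc, the hepatic lipase gene, fell after BDL (-1.28 for N-RAS-/- mice and -1.20 for N-RAS+/+ mice). With Y-linked signal as a term the values were -0.56 and -0.66 and the call was lost (adjusted p = 0.587 and 0.383). Angptl8, whose product restrains lipoprotein lipase, rose by 1.82 ± 0.21 after CCl4 in N-RAS-/- livers (adjusted p = 2.27e-05). After oil it was lower in N-RAS-/- livers than in N-RAS+/+ livers (-1.25 ± 0.21, adjusted p = 0.0100), and its genotype effect differed between CCl4 and oil by 1.58 ± 0.30 (adjusted p = 0.0146).

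Of 14 other apolipoproteins measured, the acute phase apolipoproteins Saa1 and Saa2 rose in all 4 injury comparisons. After CCl4 Saa2 rose by 2.41 ± 0.52 for N-RAS-/- mice and 3.45 ± 0.52 for N-RAS+/+ mice, and by 3.35 ± 0.35 and 2.29 ± 0.35 after BDL. With Y-linked signal as a term its rise after BDL was 2.57 in N-RAS-/- livers (adjusted p = 0.0298) and 1.70 in N-RAS+/+ livers (adjusted p = 0.0773). Saa1 and Saa2 are near copies as well. Apom, a carrier of sphingosine 1-phosphate on high density lipoprotein, fell after CCl4 (-0.88 for N-RAS-/- mice and -0.93 for N-RAS+/+ mice). Of 10 genes of high density lipoprotein assembly and remodelling, 0 were higher and 4 lower after CCl4 in N-RAS-/- livers, and 0 higher and 3 lower in N-RAS+/+ livers. Of all genes, 9.19% and 7.16% were called lower there. After BDL 3 of the 10 were higher and 2 lower in N-RAS-/- livers (7.18% and 4.05% of all genes). In N-RAS+/+ livers 1 was higher and 3 lower after BDL (4.51% and 2.7% of all genes). None of these BDL calls was kept with Y-linked signal as a term. Abca1, which exports cholesterol to apolipoprotein A-I, was among those higher after BDL (0.57 for N-RAS-/- mice and 0.57 for N-RAS+/+ mice). After CCl4 Abca1 was lower in N-RAS-/- livers (-0.67) and not called in N-RAS+/+ livers. Its CCl4 response minus its BDL response was -1.24 for N-RAS-/- mice and -0.92 for N-RAS+/+ mice, called in both. In N-RAS+/+ livers that call was lost with Y-linked signal as a term. Pon1, an esterase of high density lipoprotein, fell after CCl4 (-1.12 for N-RAS-/- mice and -0.53 for N-RAS+/+ mice) and after BDL (-1.37 and -0.89). Apon was lower in N-RAS-/- CCl4 livers than in N-RAS+/+ CCl4 livers (-1.03 ± 0.18, adjusted p = 0.00167).

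Of 13 lipoprotein receptor genes, 3 fell and 0 rose after CCl4 in each genotype, where 9.19% of all genes in N-RAS-/- livers and 7.16% in N-RAS+/+ livers were called lower. The fatty acid transporter gene Cd36 rose after BDL by 1.83 ± 0.28 for N-RAS-/- mice and 1.63 ± 0.28 for N-RAS+/+ mice, and by 2.66 and 2.26 with Y-linked signal as a term. Without array 12 the N-RAS-/- rise of Cd36 was 1.80. In N-RAS-/- livers after CCl4, Lrp1 and Lsr, which take up remnants, fell (-0.97 and -0.87).

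Of 21 transcription regulators of these genes, 6 fell and 0 rose after CCl4 in each genotype, and 3 fell and 0 rose after BDL in each. The shares of all genes called lower were 9.19% in N-RAS-/- livers and 7.16% in N-RAS+/+ livers after CCl4, and 4.05% and 2.7% after BDL. Mlxipl, the carbohydrate response factor ChREBP, fell after CCl4 (-1.73 for N-RAS-/- mice and -1.27 for N-RAS+/+ mice) and after BDL (-1.48 and -1.56). Ppara, the fatty acid receptor PPAR alpha, was not called after CCl4 in N-RAS-/- livers (0.33 ± 0.22) and fell in N-RAS+/+ livers (-1.55 ± 0.22). After BDL Ppara fell in both genotypes (-1.58 for N-RAS-/- mice and -1.16 for N-RAS+/+ mice), and with Y-linked signal as a term it was not called (adjusted p = 0.168 and 0.230). Between the CCl4 groups it was higher for N-RAS-/- mice, with a difference of 1.84 ± 0.22 (adjusted p = 9.60e-05). The genotype effect differed between CCl4 and oil by 1.88 ± 0.30 (adjusted p = 0.00657). Nr0b2, the bile acid responsive repressor SHP, fell after CCl4 (-1.95 for N-RAS-/- mice and -1.27 for N-RAS+/+ mice), and between the CCl4 groups it was lower in N-RAS-/- livers (-1.30 ± 0.16, adjusted p = 0.000122).

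With Y-linked signal as a term fewer VLDL assembly genes and fewer genes in all were called after BDL. Of the VLDL assembly genes, 0 were then higher and 3 lower in N-RAS-/- livers, and 1 higher and 3 lower in N-RAS+/+ livers. Of the 14 other apolipoproteins, 2 were then higher and 0 lower in N-RAS-/- livers and 0 were called in N-RAS+/+ livers, against 3 higher and 3 lower in each genotype without that term. Of the regulators, 2 were lower in N-RAS-/- livers and 1 in N-RAS+/+ livers, and of the receptors 1 was higher and 1 lower in N-RAS-/- livers, against 4 higher and 0 lower. Ces3b, Ces3a and Ces1e kept their falls in both genotypes (adjusted p at most 0.0111). After CCl4 the VLDL assembly counts were 4 higher and 8 lower in N-RAS-/- livers and 3 higher and 6 lower in N-RAS+/+ livers, and without array 28 the N-RAS-/- counts were 3 higher and 8 lower. Over all genes, the calls after BDL numbered 314 higher and 112 lower in N-RAS-/- livers, and 380 and 180 in N-RAS+/+ livers. Without that term they numbered 1519 and 857, and 953 and 571. No N-RAS-/- BDL or sham group held both kinds of array. The Y-linked effect after BDL therefore rests mainly on N-RAS+/+ sham, where array 2 alone had ordinary signal. Standard errors can also grow with the term, as for Apoa1 in N-RAS-/- livers (0.13 to 0.21), so a lost call need not mean a smaller difference.

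Of 25 other secreted hepatocyte proteins, albumin and its like, 2 were higher and 1 lower after CCl4 in N-RAS-/- livers, and 3 higher and 0 lower in N-RAS+/+ livers. The shares of all genes were 13.6% higher and 9.19% lower in N-RAS-/- livers and 8.08% and 7.16% in N-RAS+/+ livers. The median difference of the list was -0.03 in N-RAS-/- livers and 0.13 in N-RAS+/+ livers. Those that rose included the acute phase proteins Itih4, by 0.71 for N-RAS-/- mice and 0.90 for N-RAS+/+ mice, and Hpx, by 0.53 and 0.61.

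**Figure D5:**
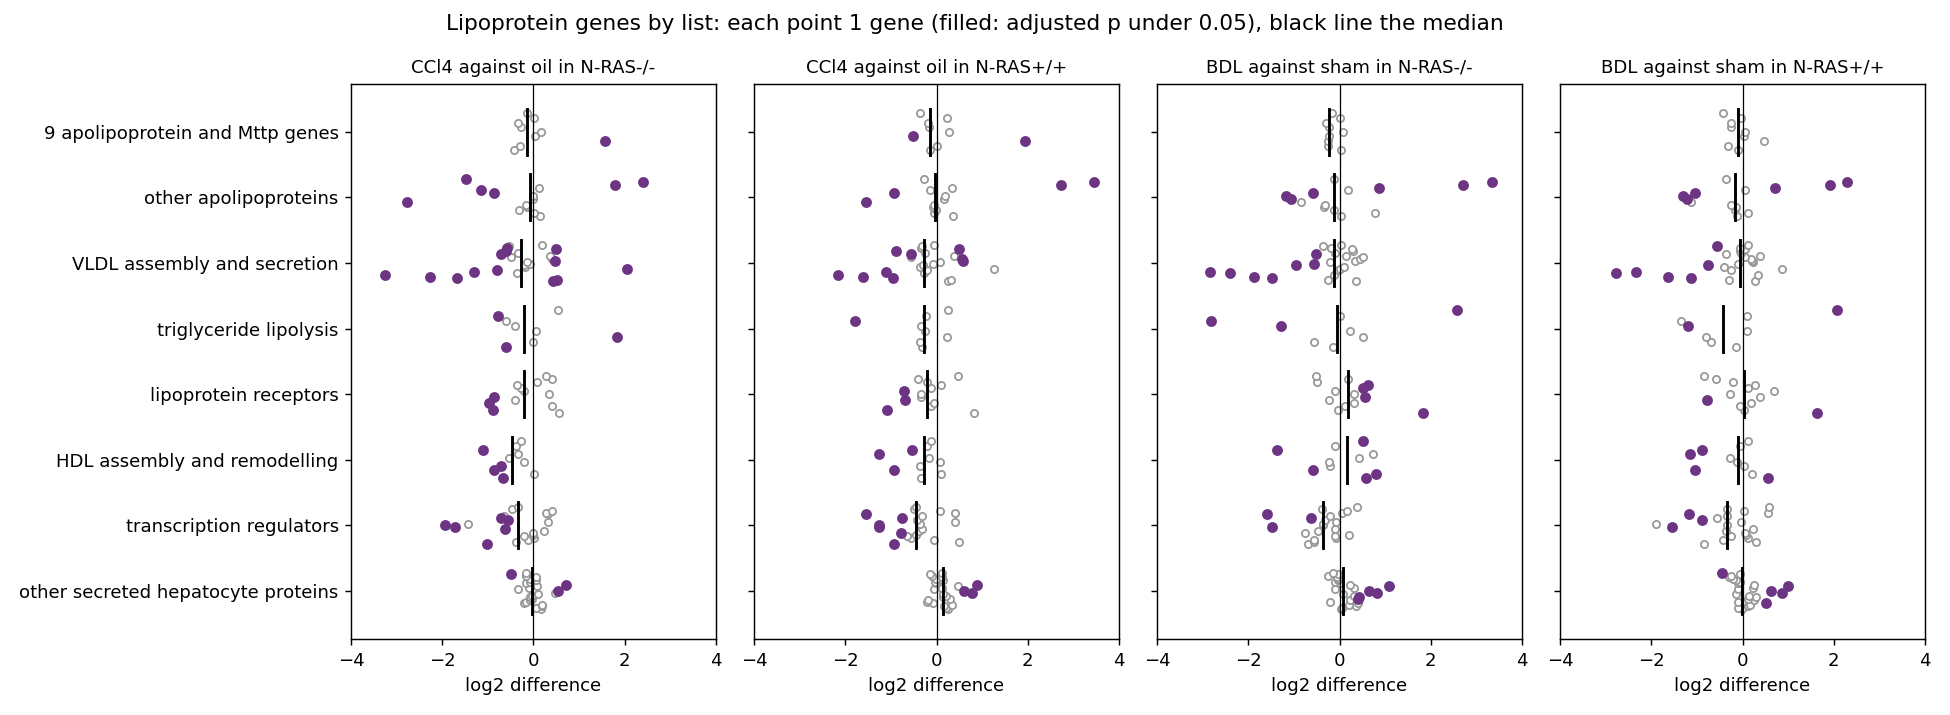
Log2 difference between injured and control livers (horizontal axis) for 8 gene lists (rows), in 4 comparisons (panels). Each point is 1 gene, filled where the adjusted p was under 0.05, and the black line is the list's median. The 9 apolipoprotein and Mttp genes cluster near 0 except Apoa4 after CCl4, while points of VLDL assembly reach -3.26.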

How the data were processed

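Total liver RNA was hybridised to an Affymetrix mouse array by the authors. The deposited values are log2 signals per probe set and array, normalized by the authors by a method not given in the sources used here. MAS5 is listed in the submitters' processing notes, its role unstated. The deposited workbook adds linear mean signals of each group, also the authors' own, which were used only to check the scale, and the authors' ratios and p values, which were not used.

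Of 22206 probe sets, those with exactly 1 symbol (21367) were kept, 836 with several symbols and 3 with none being left out. Symbols were updated with RefSeq names (883 changed), and for the 143 genes with several probe sets the brightest was used, which left 21144 genes. Using R 4.3.3 and limma 3.58.1 (lmFit, contrasts and eBayes), a mean per group was fitted separately to each experiment's 12 arrays. There were 12 comparisons in all. The CCl4 and BDL responses were compared on all 24 arrays. The Benjamini-Hochberg adjustment ran over every gene tested, and genes were called at an adjusted p under 0.05. An exact permutation test of 3 against 3 arrays cannot give a p below 0.1 and was not used. The p values set each difference against the spread between arrays within groups, pooled over all groups fitted and moderated across genes by eBayes. The small number of arrays per group limits the precision. The script was tested on simulated data.

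All members were named in every comparison, up to 3 called genes per list and comparison with the smallest adjusted p, and the 3 genes most like each member. Members, lists and rules were chosen with earlier results of these data known. Other values of named genes and the list counts with Y-linked signal as a term or without array 12 were added afterwards. Alternatives were other normalizations, filters, fits and left-out arrays. Promoter windows and figures used python 3.11.15, pandas 2.3.3 and matplotlib 3.10.9.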

Additional observations from a re-analysis of the deposited data

How the results depend on the processing

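None of the alternatives run reversed the direction of a called member. Single values were counted only where a member was called in a comparison by at least 1 fit, main or alternative. Of these, 270 kept their side of the threshold, 26 gained a call and 19 lost one. Called members after CCl4 in N-RAS+/+ livers (2, Apoa4 and Apoa5) numbered 1 when only the compared groups were fitted, after quantile normalization, with a fold of at least 2, with the methods' t-test and without array 21 after quantile normalization (an alternative chosen after seeing the data), and 1 to 2 when each array was left out. With a floor of 32 they numbered 3. In N-RAS-/- livers (1, Apoa4) they numbered 3 in a fit of all 24 arrays, after quantile normalization with or without array 21, with a filter at the 40th percentile, with a floor of 32 and in a trended, robust fit. By the methods' t-test 1 was called, but it was Apoa1 (adjusted p = 0.0347), and Apoa4 was not (0.0577). After BDL in N-RAS+/+ livers (0) there were 1 with the filter, 2 with the floor, 2 in the trended fit and 0 to 1 with each array left out, the 1 being Mttp without array 6. In N-RAS-/- livers (0) there were 2 with the floor, 1 in the trended fit and 1 with the t-test. For the CCl4 response minus the BDL response in N-RAS+/+ livers (1) there were 0 with the floor, without the arrays of low Y-linked signal (0.98, adjusted p = 0.199, with 1 sham array assumed to vary like the other groups), with Y-linked signal as a term and without array 21 after quantile normalization, and 0 to 1 with each array left out. In N-RAS-/- livers (1) there were 2 after quantile normalization with or without array 21. The cause was not tested. Without the arrays of low Y-linked signal no N-RAS-/- sham array remained, so comparisons that use that group have no such value. All other counts of members had the value given in the report. No paired analysis was possible because the replicate numbers are shared by no groups.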
